A study of Drosophila melanogaster with 6 samples.

Results

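The transcripts of the 9 dopamine and serotonin receptor genes of Drosophila melanogaster were measured by RNA sequencing in clock neurons of the adult brain. The genes were taken by symbol from the 17868 genes in the count tables, and all 9 were listed there: 4 dopamine receptors (Dop1R1, Dop1R2, Dop2R and DopEcR) and 5 serotonin receptors (5-HT1A, 5-HT1B, 5-HT2A, 5-HT2B and 5-HT7). Cells were sorted from 2 groups of flies at ZT 14 (14 h after the lights came on), following 5 days of 12 h light and 12 h dark at 20 to 22 °C. Control flies carried the Clk-GAL4 driver and a nuclear green fluorescent protein (GFP) marker over a wild-type chromosome. Prp3-RNAi flies carried the same driver and marker over UAS-Prp3-RNAi, a hairpin transgene against Prp3, which codes for a protein of the spliceosome. The control genotype names no hairpin transgene of any kind, so carrying a hairpin and losing Prp3 cannot be told apart. Age and sex of the flies are not given in the sources used here. Each group had 3 libraries of about 2000 sorted cells, positive for GFP and negative for the dye DAPI, which marks dead cells, and the titles of the control libraries name the Prp3-RNAi library with which each is paired. Nothing in the labels states what a pair shares, or that the libraries came from separate sets of flies, so p-values measure the spread between these libraries, which may in part be technical.

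Dopamine and serotonin are amine transmitters that reach these neurons from a small number of cells and act mostly through receptors coupled to G proteins. In flies, dopamine promotes wakefulness and acts on the large ventrolateral clock neurons, and serotonin promotes sleep and weakens the response of the clock to light. The D1-type receptor Dop1R1 and 5-HT7 raise cyclic AMP through the stimulatory G protein. Dop2R and the 5-HT1 receptors lower it through the inhibitory class, and the 5-HT2 receptors act through Gq, phospholipase C and calcium.

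The libraries held 24477244 to 32551739 gene counts, with 9963 to 10649 genes detected. Levels are given as CPM, read counts scaled to a common library total, with a correction for differences in composition between libraries by the trimmed mean of M values (TMM). Where 3 values stand in a row they are those of libraries 1, 2 and 3 of a group. The targeted gene Prp3 was at 45.6, 68.8 and 29.4 CPM in control and at 27.0, 28.3 and 10.8 CPM in Prp3-RNAi, lower in each pair and without overlap. Its log2 fold change was -1.16 (95% interval -1.76 to -0.56), with an adjusted p of 0.384 in edgeR's quasi-likelihood test and 0.00883 in DESeq2. Of the neuron markers 6 of 6 were above 10 CPM in every library, and so were 6 of 8 clock neuron markers. Of these, the gene of the light sensor cryptochrome, cry, was at 222, 190 and 105 CPM in control and at 85.2, 81.1 and 90.9 CPM in Prp3-RNAi, without overlap (log2 fold change -0.95, adjusted p 0.428 in edgeR and 0.00993 in DESeq2). The repressor gene vri was also lower without overlap (log2 fold change -0.41, adjusted p 0.573 in edgeR and 0.272 in DESeq2). Both genes were named after their values were seen, and 5.34% of all genes tested were lower without overlap. For every other clock neuron marker the groups overlapped. The log2 fold change was above 0 for per (0.04) and Clk (0.21). It was below 0 for tim (-0.17), Pdp1 (-0.21), cwo (-0.37) and Pdf (-3.46). Glial transcripts were present: the 8 glial markers summed to 292 to 702 CPM in control against 333 to 527 CPM in Prp3-RNAi, and 3 of them were above 10 CPM in every library, while the glial transcription factor gene repo was at 0 to 1.56 CPM. The libraries differed widely in Pdf, the neuropeptide gene of the ventrolateral clock neurons, which was at 15942, 2566 and 17385 CPM in control and at 302, 155 and 19961 CPM in Prp3-RNAi. Prp3-RNAi libraries 1 and 2 were thus far below the others, and control library 2 was low within its group. In such bulk samples fewer cells of a type and less RNA per cell cannot be told apart, and the part of these marker differences in the receptor values was not tested.

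All 9 receptor genes are long beside the typical fly gene. On build BDGP6.54, which has dm6 coordinates, the receptor genes span 10.3 to 58.0 kb with a median of 48.6 kb, while the median of the 10910 protein-coding genes with a count was 2.52 kb. Their merged exons cover 4.03 to 14.6 kb, and they hold 3 to 17 distinct introns. The longest single intron was that of 5-HT7, at 44.2 kb, and the gene with the most introns was Dop2R, with 17. No exon of any receptor gene overlapped an exon of another gene in this annotation. The counts were not separated by strand, and the annotation behind them is not given, so overlap in the counting itself was not tested. Dop1R1 lies on chromosome arm 3R from 14165379 to 14214810 (minus strand) and Dop1R2 on 3R from 29630304 to 29659984 (minus). Dop2R lies on X from 20004680 to 20062706 (minus) and DopEcR on 3L from 4367649 to 4380387 (minus). Among the serotonin receptors, 5-HT2A lies on 3R from 4612870 to 4633304 (plus), 5-HT2B on 3R from 8578205 to 8629996 (plus) and 5-HT7 on 3R from 30968236 to 31016875 (minus). The genes of the 5-HT1 receptors are neighbours on 2R: 5-HT1B runs from 19022325 to 19032642 on the minus strand and 5-HT1A from 19067155 to 19121958 on the plus strand, so their 5′ ends face each other. The gap between them is 34.5 kb and holds 3 annotated genes, Gpxl, CG15109 and CG15115.

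**Figure D1:**
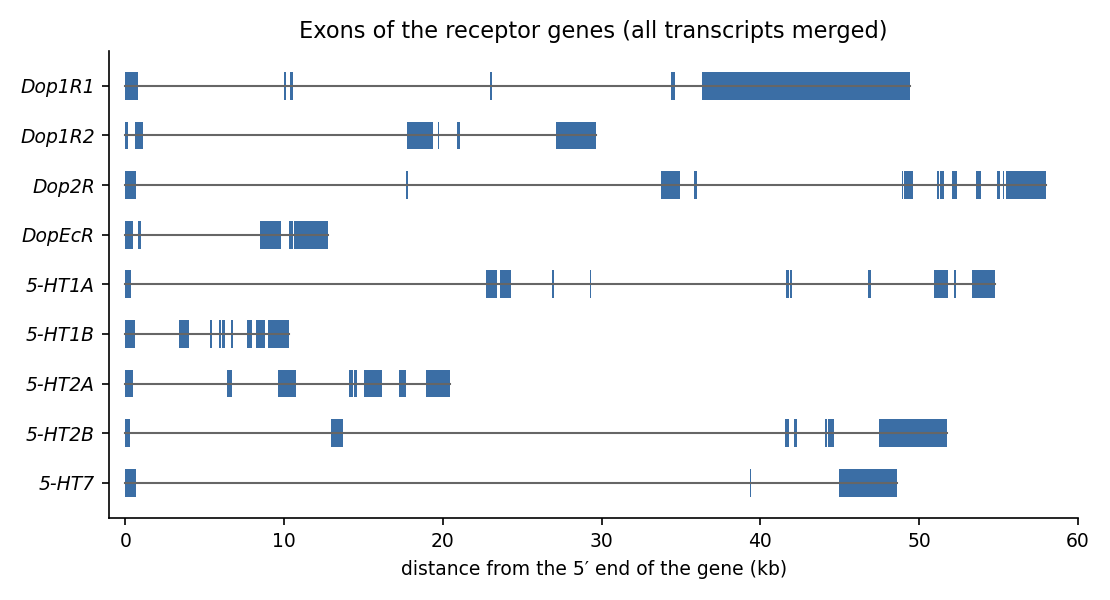
Exons (boxes, all annotated transcripts merged) and introns (lines) of the 9 receptor genes, drawn from the 5′ end of each gene in kb. Dop1R1 ends in a single exon of 13.1 kb. The longest intron of 5-HT7, at 44.2 kb, spans an exon of 0.074 kb from another transcript, which is drawn inside it.

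To compare genes with each other, CPM was divided by the length of the merged exons in kb. DopEcR, a receptor that responds to both dopamine and the steroid hormone ecdysone, stood at the head of the receptors, with 89.5 ± 15.3 CPM per kb in control and 86.5 ± 14.5 in Prp3-RNAi (SD, n = 3 each). Its level was higher than that of 89.4% to 93.4% of the 12800 genes with a count and a length, depending on the library. Dop2R, the D2-type receptor, came next at 33.6 ± 15.05 CPM per kb in control and 36.3 ± 10.8 in Prp3-RNAi. The ranges of DopEcR (73.5 to 104 CPM per kb) and Dop2R (17.6 to 47.5) over the 6 libraries did not overlap. The most abundant serotonin receptor was 5-HT1A, at 13.98 ± 1.59 CPM per kb in control and 15.6 ± 2.21 in Prp3-RNAi. It was below Dop2R in each of the 6 libraries, although the range of Dop2R reached down to 17.6 and that of 5-HT1A up to 17.9 CPM per kb.

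The other 6 receptors lay close together and low. Mean levels over the 6 libraries were 6.31 CPM per kb for 5-HT1B, 4.78 for 5-HT7, 4.39 for Dop1R1, 4.25 for Dop1R2, 3.76 for 5-HT2B and 1.80 for 5-HT2A. The ranges of the neighbours in this order overlapped throughout, so their order is not firm. Per kb of merged exon Dop1R1 was above Dop1R2 in each control library and below it in each Prp3-RNAi library: the ratio of Dop1R1 to Dop1R2 per length was 1.06, 1.85 and 1.99 in control and 0.697, 0.782 and 0.894 in Prp3-RNAi. This ratio was picked after its values were seen, has no test here, and does not say which gene differed. The place of Dop1R1 also rests on the length used, since its shortest annotated transcript takes 2.62 kb of the 14.6 kb of merged exons, of which the last exon makes up 13.1 kb. Per kb of the shortest annotated transcript, Dop1R1 would stand at 24.4 CPM, the third highest and above 5-HT1A at 14.8, and its ratio to Dop1R2 would be 5.71 to 10.7 in control and 3.75 to 4.81 in Prp3-RNAi. DopEcR (156) and Dop2R (52.3) would stay the highest and 5-HT2A (3.07) the lowest on that scale.

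Summed per length, the dopamine receptors were 3.14 to 6.33 times as abundant as the serotonin receptors in the 6 libraries, or 4.77 to 9.63 times per kb of the shortest transcript. DopEcR made up 59.5% to 78.5% of the dopamine receptor sum and Dop2R 15.2% to 32.9%. The D1-type receptors Dop1R1 and Dop1R2 made up 4.52% to 7.65% together, and 10.2% to 13.6% per kb of the shortest transcript, a scale chosen after seeing the data. Within the serotonin receptor sum, 5-HT1A and 5-HT1B together took 63.2% to 70.3%, or 55.9% to 64.5% per kb of the shortest transcript. Thus in each library the larger part of the serotonin receptor transcripts coded for receptors of the type that lowers cyclic AMP.

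**Figure D2:**
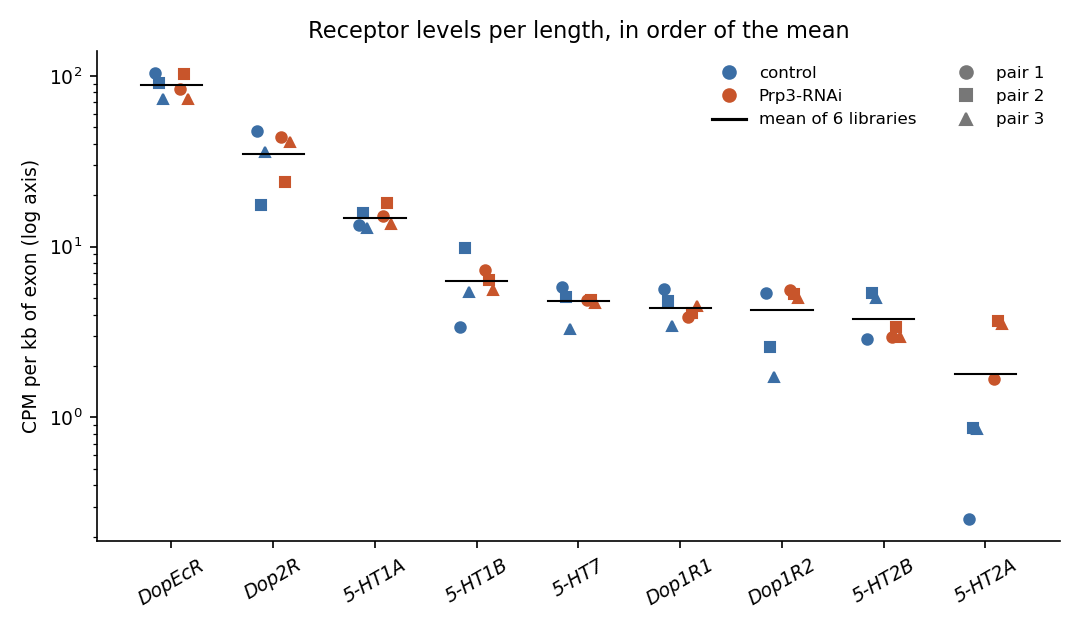
CPM per kb of merged exon for each receptor in each library, on a log axis, in order of the mean over the 6 libraries (black lines). DopEcR, Dop2R and 5-HT1A lead at 88.0, 34.9 and 14.8 CPM per kb, and 5-HT2A is the only receptor whose control and Prp3-RNAi libraries do not overlap.

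The groups were then compared to ask how Prp3-RNAi changes the receptor transcripts. Of the 9 receptors, all of which passed the filter on low counts, 0 were called at an adjusted p under 0.05 in edgeR's quasi-likelihood test, where 0 of all 8708 genes tested were called (0%). At an unadjusted p under 0.05 there was 1 of 9, 5-HT2A, beside 869 of 8708 genes or 9.98%; 4.71% of all genes were higher and 5.27% lower at that level. The receptors had a median log2 fold change of 0.15, and all genes tested one of 0.01, with 6 receptors above 0 and 3 below. DESeq2 called 1 receptor, again 5-HT2A, beside 380 genes or 4.36% of all (157 of them, or 1.8%, higher), and limma-voom called 0 receptors and 4 genes in all.

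5-HT2A, a receptor that acts through Gq, had the largest fold change of the 9 receptors. It had read counts of 44, 132 and 107 in control and 274, 621 and 554 in Prp3-RNAi. This came to 1.38, 4.67 and 4.64 CPM in control and, in Prp3-RNAi, to 9.10, 19.7 and 19.0 CPM. Every Prp3-RNAi library was above every control library, as was the case for 6.27% of all genes tested, and the libraries of pair 1 were the lowest of their groups. The pairs differed by 2.66, 2.06 and 2.02 on the log2 scale. The fitted log2 fold change was 2.27 (SE 0.51, 95% interval 0.98 to 3.57), that is 4.83-fold, with an unadjusted p of 0.00590 and an adjusted p of 0.405 in edgeR's quasi-likelihood test. In DESeq2 the log2 fold change was 2.26 and the adjusted p 0.00239. Over all 10 alternatives the log2 fold change stayed between 2.07 and 2.40 and the adjusted p ran from 0.00239 to 0.834, with only DESeq2 under 0.05. The share of 5-HT2A in the serotonin receptor sum per length was 0.993%, 2.34% and 3.13% in the control libraries and 5.25%, 10.05% and 11.6% in the Prp3-RNAi libraries. Even so, its Prp3-RNAi level of 2.94 ± 1.09 CPM per kb stayed among the low receptors.

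5-HT2B, the other Gq-type serotonin receptor, had its higher mean in control, and its difference from 5-HT2A in response was not tested. Its levels were 18.2, 33.9 and 31.8 CPM in control and 18.7, 21.5 and 18.8 CPM in Prp3-RNAi. Control libraries 2 and 3 were above the Prp3-RNAi libraries and control library 1 was below them, so the groups overlapped. The log2 fold change was -0.46 (95% interval -1.21 to 0.30), with an adjusted p of 0.657 in edgeR's test. Per length, 5-HT2B exceeded 5-HT2A by 11.3, 6.21 and 5.86 times in control libraries 1 to 3. In Prp3-RNAi libraries 1 to 3 this ratio was 1.76, 0.933 and 0.848, so in 2 of them 5-HT2A was the more abundant; this ratio, too, was picked after its values were seen.

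Of the serotonin receptors that lower cyclic AMP, 5-HT1A varied less than 5-HT1B in control (coefficient of variation 11.4% against 52.6%) but not in Prp3-RNAi (14.2% against 13.3%). 5-HT1A was at 66.8, 79.3 and 64.4 CPM in control and at 76.3, 89.9 and 68.0 CPM in Prp3-RNAi. Each pair was slightly higher in Prp3-RNAi, by 0.19, 0.18 and 0.08 on the log2 scale, while the groups overlapped. All 3 pairs lay on 1 side for 35.1% of the genes tested and were higher in Prp3-RNAi for 17.5%, and among the receptors for Dop1R2, 5-HT1A and 5-HT2A. The log2 fold change of 5-HT1A was 0.15 (95% interval -0.19 to 0.50, that is 0.875-fold to 1.41-fold), with an adjusted p of 0.763 in edgeR's test. 5-HT1B, known in flies for its role in clock neurons, where it dampens the response to light, was at 13.7, 39.3 and 21.8 CPM in control and at 29.4, 25.8 and 22.5 CPM in Prp3-RNAi. The control libraries enclosed the Prp3-RNAi libraries, and the pairs went in different directions (1.10, -0.61 and 0.05). Its log2 fold change of 0.17 had an interval from -0.84 to 1.18 (adjusted p 0.918, edgeR) and turned to -0.27 without pair 1.

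5-HT7, the serotonin receptor that raises cyclic AMP, was at 26.2, 22.9 and 14.7 CPM in control and at 21.9, 22.0 and 21.0 CPM in Prp3-RNAi. The Prp3-RNAi libraries were nearly equal and lay inside the control range. Its log2 fold change was 0.06 (95% interval -0.72 to 0.85, adjusted p 0.964 in edgeR's test), and it turned to -0.16 without pair 3.

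**Figure D3:**
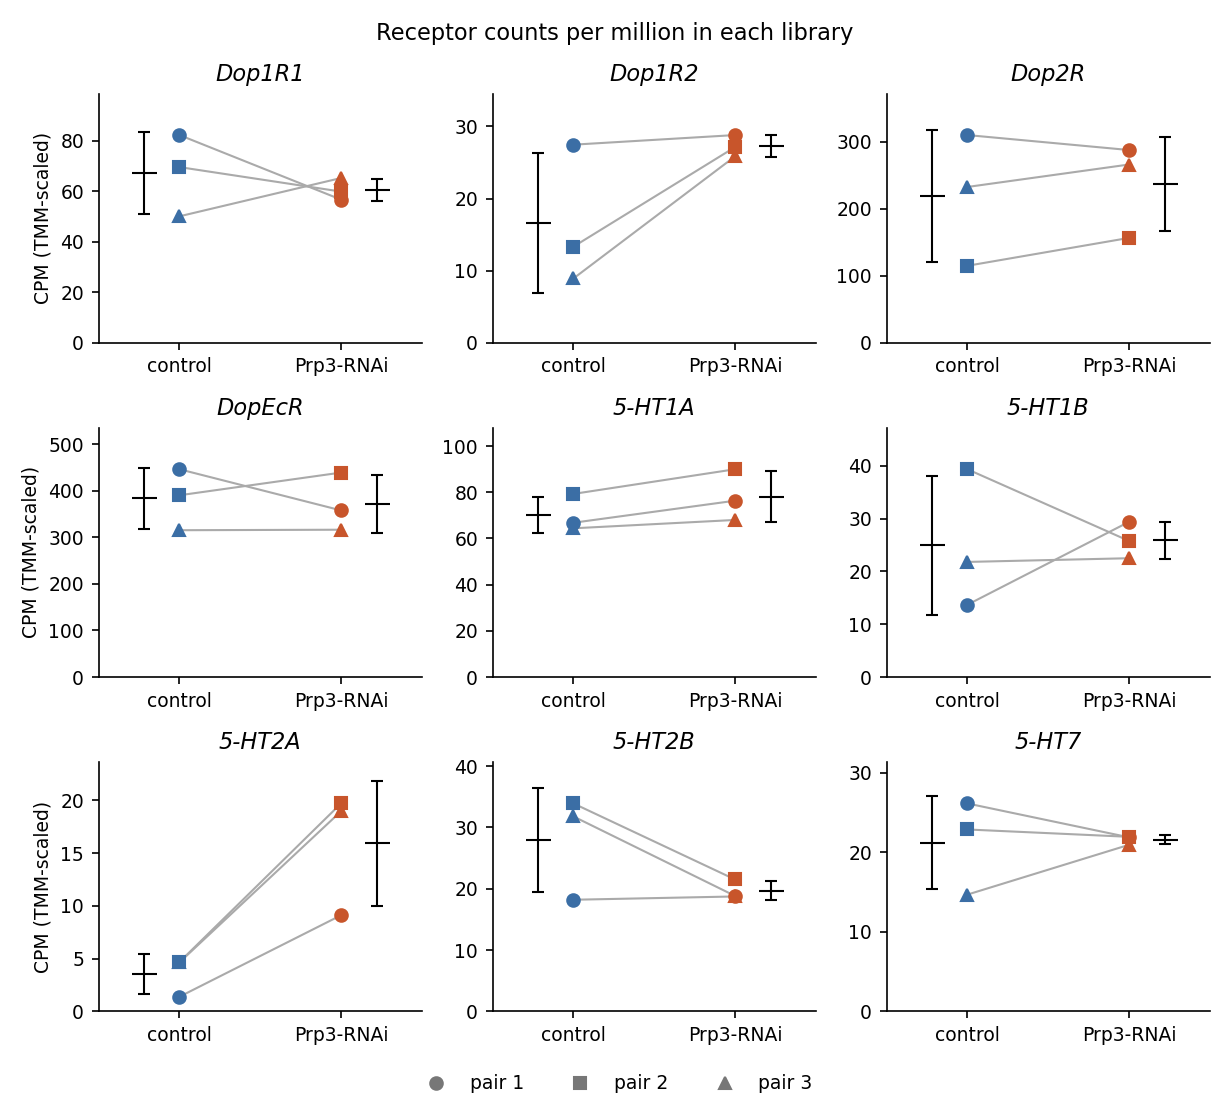
CPM of each receptor in each library, with the libraries of a pair joined by a line and the mean and SD (n = 3) of each group beside the points. Only in the panel of 5-HT2A do the groups not overlap (1.38 to 4.67 against 9.10 to 19.7 CPM); Dop1R2 is low in 2 control libraries.

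Dop1R2, a D1-type receptor known from the mushroom body for its part in forgetting, was the dopamine receptor with the largest difference. Control library 1 was at 27.5 CPM and control libraries 2 and 3 were at 13.3 and 8.93 CPM, while the Prp3-RNAi libraries were at 28.8, 27.1 and 25.8 CPM. The Prp3-RNAi libraries thus agreed closely with each other and with control library 1. The pairs differed by 0.07, 1.02 and 1.53 on the log2 scale, so pair 1 hardly differed. The log2 fold change was 0.88 (SE 0.39, 95% interval -0.10 to 1.85) at an unadjusted p of 0.0698 and an adjusted p of 0.544 in edgeR's test. It was 1.29 without pair 1 and 0.55 without pair 3, and its adjusted p stayed between 0.336 and 0.999 over the alternatives.

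Dop1R1, the D1-type receptor through which dopamine promotes arousal in flies, was at 82.2, 69.5 and 50.04 CPM in control and at 56.7, 59.8 and 65.2 CPM in Prp3-RNAi. Pairs 1 and 2 were lower and pair 3 higher in Prp3-RNAi, and the groups overlapped. The log2 fold change was -0.13 (95% interval -0.68 to 0.43, adjusted p 0.893 in edgeR's test) and turned to 0.094 without pair 1.

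Dop2R, the D2-type receptor, which also serves as an autoreceptor on dopamine neurons, varied more by pair than by group. It was at 310, 115 and 233 CPM in control and at 288, 157 and 266 CPM in Prp3-RNAi. The library of pair 2 was the lowest in both groups and that of pair 1 the highest. The log2 fold change was 0.18 (95% interval -0.17 to 0.53, adjusted p 0.717 in edgeR's test). DopEcR did not follow the order of Dop2R. It was at 446, 390 and 315 CPM in control and at 358, 439 and 316 CPM in Prp3-RNAi, with pair 3 the lowest in both groups. Its log2 fold change was -0.05 (95% interval -0.37 to 0.28, that is 0.773-fold to 1.21-fold), with an adjusted p of 0.932 in edgeR's test. The sign of this small difference turned without pair 1 (0.10) and with scaling by total counts (0.020).

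**Figure D4:**
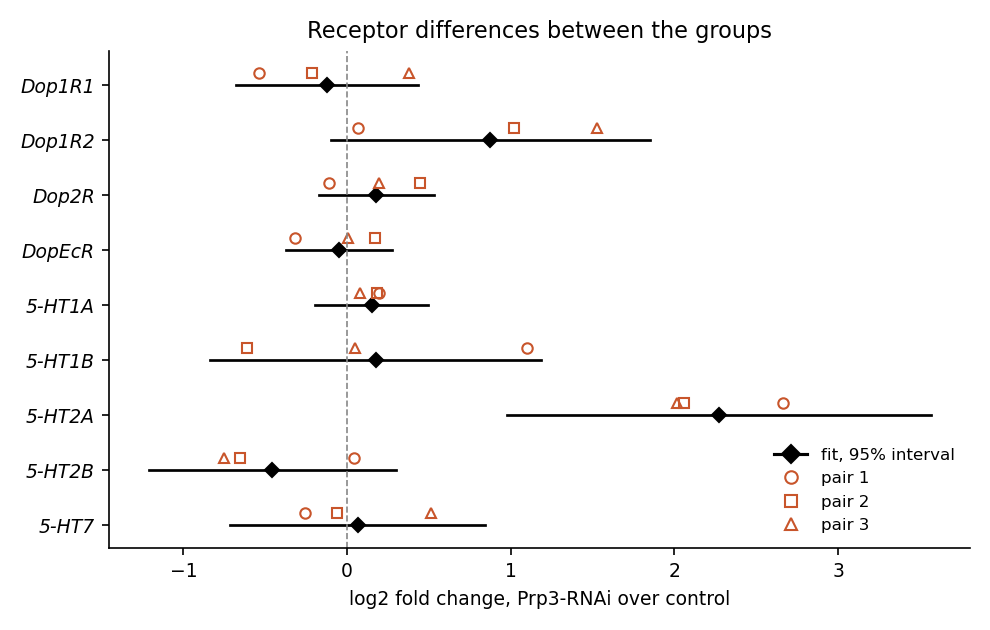
Log2 fold change of each receptor, Prp3-RNAi over control, from edgeR (diamond) with its unadjusted 95% interval (line) and the 3 pair differences (open symbols). The interval of 5-HT2A, 0.98 to 3.57, is the only one of the 9 that does not hold 0, and its adjusted p was 0.405 in edgeR's quasi-likelihood test.

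Receptors differed in how much they varied within a group. In control the coefficient of variation ran from 11.4% for 5-HT1A to 58.5% for Dop1R2, with a median of 30.5% beside 29.2% for all genes tested. In Prp3-RNAi it ran from 2.61% for 5-HT7 to 37.2% for 5-HT2A, with a median of 13.3% beside 27.4% for all genes tested; this difference in spread was not tested. Of the 36 pairs of receptors 17 had a Pearson r of log2 CPM above 0 over the 6 libraries, with a median of -0.03. Among all other tested genes, the one with the pattern most like each receptor over the 6 libraries was Rtca for Dop1R1, scaf6 for Dop1R2, CR43087 for Dop2R and Cyp49a1 for DopEcR. It was sax for 5-HT1A, inc for 5-HT1B, DCAF12 for 5-HT2A, Lrp4 for 5-HT2B and Iru for 5-HT7. These r values ran from 0.978 to 0.996 and are descriptive only, because 8707 genes were compared over 6 libraries, and libraries of a pair or a group are not independent.

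The genes that make, carry and break down the amines were examined next, since the receptors answer to them. Of 12 such genes 9 were tested and 0 were called in edgeR. At an unadjusted p under 0.05, 0 were higher and 2 lower, and the median log2 fold change was -0.16. Beside this list and those below, 4.71% of all genes tested were higher and 5.27% lower at that level. The genes e, t and b of this list did not pass the filter. The gene ple codes for tyrosine hydroxylase, the rate-limiting enzyme of dopamine synthesis. It was at 564, 510 and 776 CPM in control and at 159, 306 and 81.1 CPM in Prp3-RNAi, with no overlap of the groups; 5.34% of the genes tested were lower without overlap. The pairs fitted to a log2 fold change of -1.93 (SE 0.49) at an unadjusted p of 0.00983 and an adjusted p of 0.424 in edgeR's test. The dopamine transporter gene DAT, named after its values were seen, was at 350, 299 and 674 CPM in control and at 154, 280 and 85.2 CPM in Prp3-RNAi, again without overlap (log2 fold change -1.40, adjusted p 0.505 in edgeR's test). Pu, which codes for the enzyme that starts the synthesis of the cofactor of tyrosine hydroxylase, was lower in each pair (log2 fold change -0.62, SE 0.17, adjusted p 0.432 in edgeR and 0.0276 in DESeq2). Vmat, the vesicular transporter of all these amines, was the most abundant gene of the list in CPM and ran from 628 to 2418 CPM in control and from 1263 to 2899 CPM in Prp3-RNAi (log2 fold change 0.83, adjusted p 0.527 in edgeR). Of its exonic length 26.2% is shared with CG13330, so its counts are less certain.

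These values also describe the sort. Markers of dopaminergic neurons (ple, DAT, Ddc and Vmat) were all above 10 CPM in every library and summed to 2498 to 5177 CPM in control against 3188 to 4545 CPM in Prp3-RNAi. Markers of serotonergic neurons (Trh, SerT, Ddc and Vmat) summed to 2111 to 4143 CPM in control and 3027 to 4800 CPM in Prp3-RNAi. Ddc and Vmat stand in both lists and make up most of both sums, so the sums do not separate these cell types. The other dopaminergic markers, ple and DAT, were lower in Prp3-RNAi without overlap, as given above. Trh, the neuronal tryptophan hydroxylase gene, ran from 8.05 CPM in control library 1 to 420 CPM in control library 2. The serotonin transporter gene SerT ran from 3.50 CPM in control library 2 to 299 CPM in Prp3-RNAi library 1. Trh and SerT thus varied widely within both groups, and the part of such cells in the receptor values was not tested. Of the 4 mushroom body markers the sum was 293 to 376 CPM in control against 341 to 570 CPM in Prp3-RNAi, most of it from toy. Photoreceptor markers summed to 4.39 to 68.3 CPM in control against 10.9 to 48.5 CPM in Prp3-RNAi. Among them ninaC, a myosin gene of photoreceptors, was named after its values were seen. It was at 0.0313, 0.0707 and 0.217 CPM in control and at 7.54, 1.999 and 3.01 CPM in Prp3-RNAi, without overlap. Its adjusted p was 0.435 in edgeR and 0.00446 in DESeq2, and 6.27% of all genes tested were higher without overlap. For every other photoreceptor marker the groups overlapped. The log2 fold change was above 0 for trp (1.35) and inaD (0.41) and below 0 for ninaE (-0.40) and chp (-0.45). The gene trpl did not pass the filter. What part ninaC has in the receptor values was not tested. Hemocyte and fat body markers summed to 13.4 to 89.4 CPM in control against 5.17 to 29.4 CPM in Prp3-RNAi, with He and Lsp2 at 0 in every library. The 89.4 CPM was that of control library 3, with Hml at 45.9 CPM and NimC1 at 29.0 CPM. In every other library Hml was at 0.188 CPM or less and NimC1 at 0. Both were named after their values were seen, and the part of such cells in the receptor values was not tested.

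Downstream of the receptors, 9 of 11 genes for G protein subunits were tested and 0 were called, with 0 higher and 2 lower at an unadjusted p under 0.05 and a median log2 fold change of -0.17. Galphaq, the subunit through which the 5-HT2 receptors act, was at 278, 306 and 303 CPM in control and at 226, 208 and 247 CPM in Prp3-RNAi, without overlap. On the log2 scale the fit gave -0.38 (SE 0.11, adjusted p 0.435 in edgeR's test), and 44.1% of its exonic length is shared with CG45086. Gbeta5 had a log2 fold change of -0.29 (adjusted p 0.498, edgeR). Ggamma30A, the most abundant of the list in CPM, was at 3287 ± 1020 CPM in control against 4014 ± 895 CPM in Prp3-RNAi (SD, n = 3 each; adjusted p 0.549, edgeR). Of the 6 genes for desensitisation and regulation of G proteins, all tested, 0 were called and 0 reached an unadjusted p under 0.05. Their median log2 fold change was -0.05, with values of 0.02 for the receptor kinase gene Gprk1 and -0.16 for RSG7, a regulator of G protein signalling (adjusted p 0.968 and 0.701 in edgeR's test).

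In the cyclic AMP arm 14 of 15 genes were tested and 0 were called, with 0 higher and 1 lower at an unadjusted p under 0.05 and a median log2 fold change of 0.04. The 1 gene was CrebA, which despite its name is known in flies mainly for its control of secretory genes. It was at 58.4 ± 3.64 CPM in control against 42.2 ± 6.58 CPM in Prp3-RNAi (SD, n = 3 each; log2 fold change -0.48, adjusted p 0.483 in edgeR's test). Pka-R1, a regulatory subunit of protein kinase A, was the most abundant of the list in CPM, at 754 ± 150 CPM and 548 ± 86.8 CPM (adjusted p 0.546, edgeR).

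In the phospholipase C and calcium arm all 11 genes were tested and 0 were called in edgeR, with 3 higher and 1 lower at an unadjusted p under 0.05 and a median of 0.07. Pkc53E, a protein kinase C activated by calcium and diacylglycerol, was at 254, 246 and 226 CPM in control and at 486, 393 and 435 CPM in Prp3-RNAi. The groups lay far apart beside their spread: the log2 fold change was 0.85 (SE 0.11) at an unadjusted p of 0.000425 and an adjusted p of 0.221 in edgeR and 2.07e-09 in DESeq2. The kinase genes rdgA and Dgk, whose products remove diacylglycerol, had values on opposite sides. The log2 fold change was 0.74 (SE 0.13, adjusted p 0.367 in edgeR and 0.00140 in DESeq2) for rdgA and -0.91 (SE 0.22, adjusted p 0.417 in edgeR and 0.0485 in DESeq2) for Dgk. Dgk shares 10.1% of its exonic length with Atg10. Pkc98E, a protein kinase C that does not need calcium, had a log2 fold change of 0.29 (adjusted p 0.472, edgeR). CaMKII, the most abundant gene of this list in CPM, was at 1493 ± 221 and 1574 ± 254 CPM (SD, n = 3 each; adjusted p 0.811, edgeR).

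**Figure D5:**
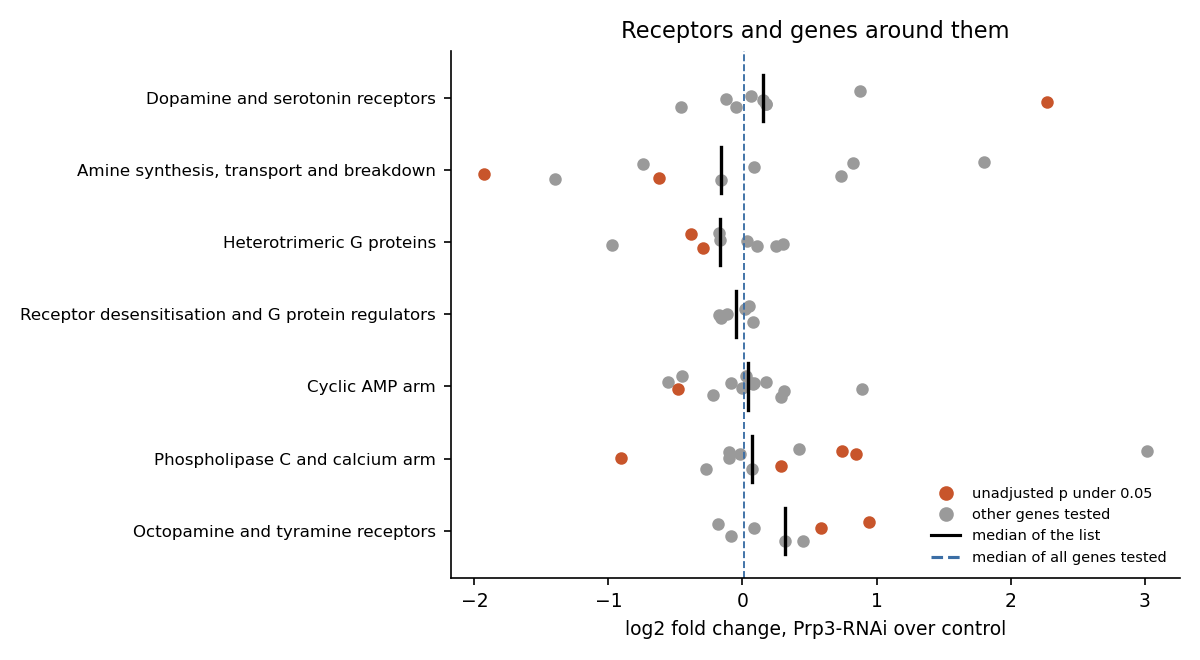
Log2 fold change, Prp3-RNAi over control, of each tested receptor gene and of each tested gene in the 6 other lists, with the median of each list (black) and of all genes tested (dashed). Coloured points have an unadjusted p under 0.05, and 0 of the points had an adjusted p under 0.05 in edgeR's quasi-likelihood test.

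Receptors for octopamine and tyramine, amines that in insects take the place of noradrenaline and adrenaline, were set beside them. Of 8 such genes 7 were tested and 0 were called in edgeR, with 2 higher and 0 lower at an unadjusted p under 0.05 and a median log2 fold change of 0.32, against 0.15 for the dopamine and serotonin receptors. Octbeta1R, an octopamine receptor of the β-adrenergic-like type, was at 153, 269 and 107 CPM in control and at 309, 485 and 209 CPM in Prp3-RNAi. The groups overlapped, but each pair was higher in Prp3-RNAi. With the replicate block the fit gave 0.94 on the log2 scale (SE 0.10, adjusted p 0.129 in edgeR and 1.19e-11 in DESeq2). In edgeR without the block the value was 0.92, with an unadjusted p of 0.0490 and an adjusted p of 0.999. Octbeta2R was also higher in each pair (log2 fold change 0.58, SE 0.23, adjusted p of 0.496 in edgeR). Per kb of exon, Octbeta1R, at a mean of 47.2 CPM over the 6 libraries, stood between DopEcR (88.0) and Dop2R (34.9). DESeq2 called 4.36% of all genes tested. Of the lists it called 1 of 9 tested genes for the amines, 0 of 9 for the G proteins and 0 of 6 for their regulators. It called 0 of 14 for the cyclic AMP arm, 3 of 11 for the phospholipase C arm and 1 of 7 for the octopamine and tyramine receptors.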

How the data were processed

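Messenger RNA of sorted clock neurons was sequenced in 6 libraries. The authors deposited raw read counts per gene for each library. The submitters' processing notes name Trim Galore 0.6.7, STAR 2.7.0a and the build dm6; the annotation and the counter are not given in the sources used here. The count column for both strands together was used, since 50.0% to 50.1% of gene counts fell to the forward strand. Reads not assigned to a gene for any reason, 18.5% to 24.4% of those tallied, were left out.

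The groups were compared in edgeR 4.0.16 and R 4.3.3 (quasi-likelihood test, two-sided, TMM scaling, replicate number as a block, filterByExpr with min.count 10 and min.total.count 15, which kept 8708 genes), with Benjamini-Hochberg adjustment over all genes tested. Standard errors are the log2 fold change over the square root of F, and 95% intervals are not adjusted. log2 CPM used a prior count of 2. The fit was tested on simulated data. Alternatives were DESeq2 1.42.0, limma-voom (limma 3.58.1), a fit without the block, 2 other scalings, 2 other filters and leaving out each pair. The block follows the titles. Deviations from the group means correlated at 0.046, 0.266 and 0.236 across genes within the stated pairs and at -0.252 to 0.020 between others. The deviations of a gene within a group cancel out, so these correlations are tied to each other and do not test the pairing.

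Exon lengths and coordinates came from Ensembl's BDGP6.54 annotation, which matched 17161 of 17868 symbols. Trh was read as the neuronal tryptophan hydroxylase gene, because RefSeq gives Trh as a synonym of it and the tables list trh and Hn separately. The genes named are all receptors and, from each further list, the gene with the highest mean CPM, the smallest p-value and each unadjusted p under 0.05. For each receptor the most alike gene is named too. The cell type marker lists have no such rule, and single markers in them, like DAT, were named with their values known. The receptors and lists were chosen with earlier results of these data known. PCR copies are not independent molecules, so read numbers overstate the precision of low genes.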

Additional observations from a re-analysis of the deposited data

How the results depend on the processing

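The count of receptors called was 0 in edgeR with the replicate block and 0 without the replicate block; it was 1 with DESeq2, and 0 with limma-voom, other scalings, other filters and each pair left out. The count of pathway genes called was likewise 0, with 5 in DESeq2 (Pu, Pkc53E, rdgA, Dgk and Octbeta1R). Over all genes, 0 were called with the block, 8 with no replicate block, 380 in DESeq2, 4 in limma-voom, 11 with at least 1 count, 4 with at least 50 counts in 3 libraries, and 0 to 4 with a pair left out. The causes of these differences were not tested. Of the 90 alternative log2 fold changes of receptors 84 kept direction and side of the threshold. With each pair left out in turn, the sign turned for Dop1R1 (-0.38 to 0.094), DopEcR (-0.15 to 0.10), 5-HT1B (-0.27 to 0.58), 5-HT7 (-0.16 to 0.24) and Gprk1 (-0.043 to 0.17). It also turned with total counts for DopEcR (0.020). Scaling by total counts shifted the median log2 fold change of all genes by 0.07. Chosen after seeing the data, other scalings moved no receptor's mean level per length by more than its SD, while the length of the shortest transcript moved 6 of 9, most of all Dop1R1 (from 4.39 to 24.4 CPM per kb). With 3 libraries a group, receptor intervals spanned from 0.65 log2 units (DopEcR) to 2.59 (5-HT2A).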
